A study of Homo sapiens with 6 samples.

Results

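The mitochondrial ribosome translates the few messages that mitochondrial DNA encodes, all of which specify core subunits of the respiratory chain and the ATP synthase. Its RNAs come from mitochondrial DNA, but its proteins are encoded in the nucleus, made in the cytosol and imported. The large subunit (MRPL genes) holds the peptidyl transferase centre and the exit tunnel, and the small subunit (MRPS genes) holds the decoding centre. Part of the proteins descend from bacterial ribosomal proteins and the others have no bacterial counterpart.

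Genes were chosen by symbol: MRPL or MRPS followed by a digit, read by at least 1 probe set that names that gene alone. The rule found 74 of the 17534 genes measured, 47 of the large and 27 of the small subunit by symbol. All 74 were listed as protein coding in RefSeq (GRCh38.p14), where 77 coding genes have such a symbol. Of the other 3, MRPL53 and MRPS24 were read only by probe sets that name another gene too, and MRPL23 by one that lists it under 2 gene numbers. Each gene was represented by whichever of its probe sets was brightest on average (6 arrays), so levels served to choose probe sets and are given as a description. The difference between the groups played no part in the rule.

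Expression was measured on Affymetrix PrimeView arrays in MM.1R cells, an established line of human myeloma cells that glucocorticoids do not kill. The control group was 3 arrays of cells infected with the short hairpin control virus shCtrl, and the other group 3 arrays of cells given epirubicin hydrochloride, an anthracycline that poisons topoisomerase II. Because the labels mention the virus only for shCtrl, the effects of virus and drug cannot be told apart. Dose, duration and whether replicates were separate cultures are not stated in the sources used here. The p-values therefore measure the spread between these arrays, which may be technical.

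The deposited values were on a log2 scale, from 1.41 to 13.73 over all probe sets. Arrays correlated at r = 0.998213 to 0.99847 within groups and at 0.994496 to 0.994729 between groups, over probe sets that are not independent. The 11 plasma cell markers averaged 10.00 to 10.01 on the control and 9.82 to 9.85 on the epirubicin arrays. Their control means ran from 4.13 for CD27 to 12.35 for TNFRSF17, with CD79A at 5.94 and CD38 at 6.42. By the rule given next, 2 of the 11, CD38 and IRF4, were called lower and 0 higher. Of the 11, 8 had a log2 fold change below 0 and 3 above, with a median of -0.07. CD38 lay at -1.18 and IRF4 at -0.49, while SLAMF7 and POU2AF1 lay at 0.23 and 0.25. The 4 markers of T and NK cells averaged 4.62 to 4.69 and 4.83 to 4.89, and the 3 myeloid markers 3.39 to 3.44 and 3.48 to 3.55, with 0 of either list called. All 4 markers of T and NK cells lay above 0. At a limma adjusted p under 0.05 at any fold 2 were higher (15.6% of all genes), CD2 at 0.35 and NCAM1 at 0.20. The means over their probe sets were -0.02 and 0.06. The 2 measured B cell markers, MS4A1 and PAX5, lay at 0.04 and 0.12, from control means of 3.69 and 9.77. The 3 stromal markers averaged 4.87 to 4.91 and 4.94 to 5.03, and the 3 epithelial markers 3.64 to 3.78 and 3.68 to 3.76. Of these 3 lists too, 0 genes were called. The part of these shifts in the results was not tested.

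Groups were compared with limma over all genes, with Benjamini-Hochberg adjustment. Calling a gene higher or lower took a 1.3-fold difference or more (0.38 on the log2 scale) together with an adjusted p below 0.05. Of all genes, 4.36% were called higher and 2.14% lower. With each array centred on the median of its genes, the split of 765 higher and 376 lower became 530 higher and 691 lower, and the median log2 fold change of all genes moved from 0.02 to -0.06.

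A single gene of the mitochondrial ribosome was called. MRPL1, which encodes the protein of the flexible L1 stalk beside the tRNA exit site, rose 1.46-fold with epirubicin. It was the only 1 of 74 called higher, and 0 of 74 were called lower. The other genes lay mostly a little below control: 56 of 74 had a log2 fold change below 0, against 44.3% of all genes, and their median was -0.11, against 0.02 over all genes tested. The 74 fold changes ran from -0.36, for MRPL4, to 0.55, for MRPL1, and the middle part between the quartiles from -0.19 to -0.01.

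**Figure D1:**
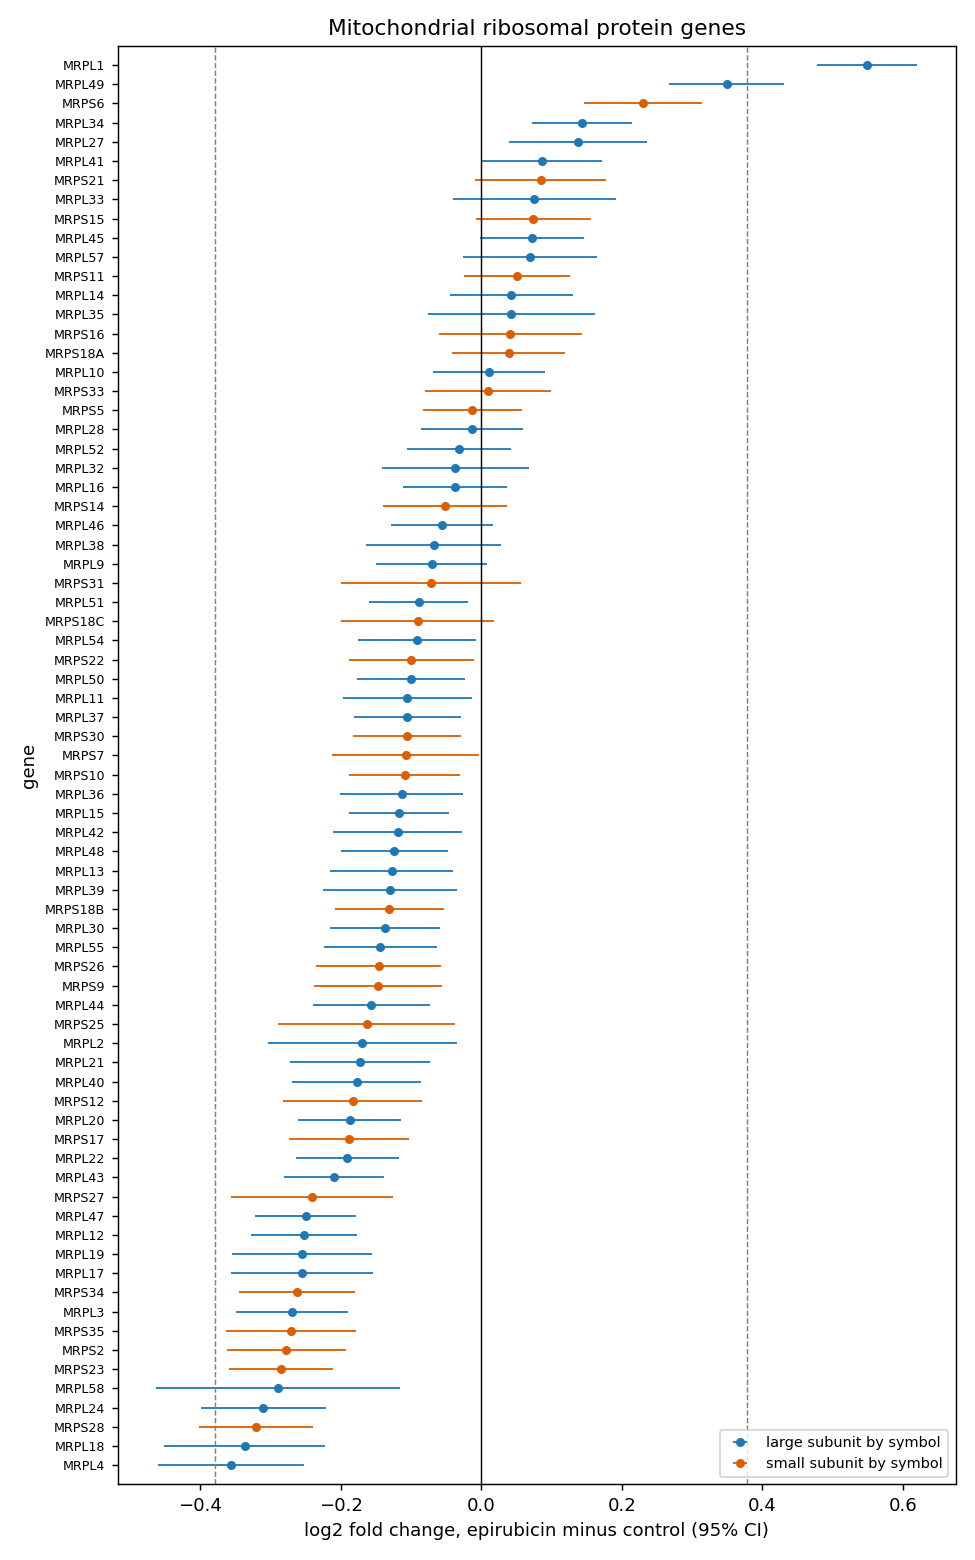
Log2 fold change, epirubicin minus control, of the 74 genes with its 95% confidence interval from limma (3 arrays per group), ordered by value; blue marks MRPL and orange MRPS symbols, and dashed lines mark a 1.3-fold change. MRPL1 at 0.55 is the only point past a dashed line, 56 of the 74 points lie left of 0, and both colours run through the whole order.

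Small differences were measured precisely in many of these genes. At an adjusted p under 0.05 in limma, whatever the fold, 33 of 74 genes were lower (44.59%) and 5 higher (6.76%). Over all genes these shares were 13.5% lower and 15.6% higher. Among the 9935 genes brighter than the median of all values, as all 74 are, they were 22.2% lower and 22% higher. In 47 of the 74 genes all 3 epirubicin arrays lay below all 3 control arrays (20.1% of all genes), and in 10 they lay above (23.8% of all genes). With centred arrays 52 of the 74 were lower and 3 higher, against 23.2% and 9.64% of all genes. Without control replicate 1 the counts were 21 and 5, against 10.4% and 12.2% of all genes. In whole-cell RNA, fewer transcripts per cell and fewer cells that carry them cannot be told apart.

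The array means of the 74 genes showed the same order. Set to 0 at the control mean of each gene, they were 0.006, -0.009 and 0.003 in the control arrays and -0.12, -0.07 and -0.09 in the epirubicin arrays. The first epirubicin array was the lowest of its group and the second the highest. The mean over all 17534 genes was 0.035, 0.022 and 0.024 in the same 3 arrays. In every epirubicin array, at least 49 of the 74 genes lay below their lowest control value.

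MRPL1 had log2 values of 10.39, 10.39 and 10.38 in the control arrays and 10.91, 10.93 and 10.95 in the epirubicin arrays. The groups were far apart and each was tight, with means of 10.38 ± 0.01 and 10.93 ± 0.02 (SD, n = 3). The log2 fold change was 0.55 (SE 0.03, CI 0.48 to 0.62, limma adjusted p = 6.61e-05). Its other probe set was called too, at 0.63 (SE 0.04), from 9.81 ± 0.03 to 10.45 ± 0.03. MRPL1 was called higher under each of the alternatives run.

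MRPL49, a component without bacterial counterpart, came next. Its values were 8.96, 8.89 and 8.88 in control and 9.25, 9.25 and 9.27 with epirubicin, so every epirubicin array was higher. The fold change of 1.27 (log2 0.35, SE 0.03, limma adjusted p = 0.000629) was just short of the fold threshold, and the gene was not called. Both MRPL1 and MRPL49 lay above 0.25, the value that is 1.5 interquartile ranges above the upper quartile of the 74 genes, and 0 genes lay below the matching lower bound of -0.45.

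MRPS6, the small subunit gene with the highest fold change, had 8.55, 8.54 and 8.54 in control and 8.75, 8.83 and 8.75 with epirubicin. Its groups did not overlap, but the difference of 0.23 (SE 0.03, limma adjusted p = 0.00346) was under the fold threshold. MRPL34 and MRPL27, counterparts of bacterial proteins of the large subunit, differed by 0.14 each (SE 0.03 and 0.04), with adjusted p of 0.0124 and 0.0464 in limma. With centred arrays they lay at 0.07 and 0.06, with adjusted p of 0.145 and 0.322. MRPL41, MRPS21 and MRPL33 completed the 8 highest at 0.09, 0.08 and 0.08, with limma adjusted p from 0.127 to 0.309. With centred arrays these 3 lay at 0.01, 0.009 and 2.6e-05. All 4 probe sets of MRPS21 lay above 0, with a mean of 0.13. Of the 4, 1 at a mean signal of 8.44 differed by 0.27 (SE 0.05, limma adjusted p = 0.00994).

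At the other end, MRPL4, whose bacterial counterpart lines the exit tunnel, had values of 8.86, 8.83 and 8.82 in control and 8.43, 8.56 and 8.46 with epirubicin. All epirubicin arrays lay below all control arrays, with the second the nearest to them. The log2 fold change was -0.36 (SE 0.04, CI -0.46 to -0.25, limma adjusted p = 0.0014), a 1.28-fold difference and the nearest below the threshold. The gene was called lower without epirubicin replicate 2 (-0.40). Of its 4 probe sets 3 lay between -0.36 and -0.24, and a dim one, at a mean of 4.02, lay at 0.15. The mean of the 4 was -0.19.

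MRPL18, a protein of the central protuberance, had 9.81, 9.82 and 9.75 in control and 9.51, 9.37 and 9.49 with epirubicin. All 3 of its probe sets lay below 0, and the one used at -0.34 (SE 0.05). MRPS28, of the small subunit, had 8.79, 8.85 and 8.79 in control and 8.46, 8.50 and 8.50 with epirubicin, a difference of -0.32 (SE 0.03). Its dimmer probe set was itself called lower, at -0.44 (SE 0.04), and the mean of both probe sets was called as well (-0.38, limma adjusted p = 0.000136). MRPL24, which lies at the exit tunnel in bacterial ribosomes, had 10.34, 10.28 and 10.30 in control and 9.95, 10.03 and 10.01 with epirubicin, a difference of -0.31 (SE 0.04). With arrays centred on the median of their genes, these 3 genes and MRPL4 were called lower, at -0.41, -0.40, -0.39 and -0.43. That setting called 691 of all 17534 genes lower.

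MRPL58, a peptidyl-tRNA hydrolase that was taken into the ribosome as a structural protein, was more variable. Its values were 7.48, 7.59 and 7.40 in control and 7.13, 7.33 and 7.14 with epirubicin, with a difference of -0.29 (SE 0.07, limma adjusted p = 0.0252). The small subunit genes MRPS23, MRPS2 and MRPS35 completed the 8 lowest at -0.29, -0.28 and -0.27, with adjusted p of 0.000894 to 0.00266 in limma.

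**Figure D2:**
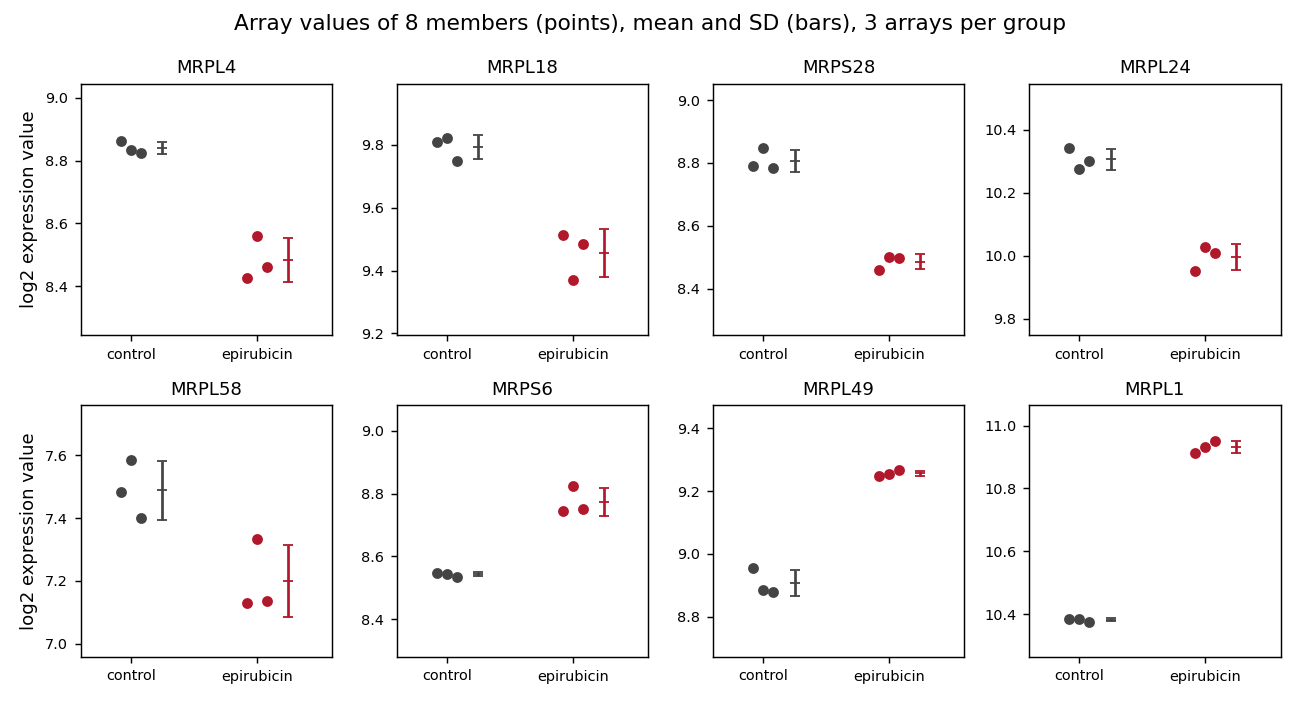
Deposited log2 values of 8 genes in the 3 control (grey) and 3 epirubicin (red) arrays, with mean and SD beside the points; each panel spans 0.8 log2 units. In all 8 panels the groups do not overlap; MRPL1 moves from 10.38 to 10.93 and MRPL4 from 8.84 to 8.48.

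The 2 subunits gave nearly the same values. By symbol, the 47 MRPL genes had a median log2 fold change of -0.11 and the 27 MRPS genes one of -0.11. With centred arrays the medians were -0.19 and -0.18. Of the large subunit 21 genes (44.68%) were lower and 4 higher in limma at an adjusted p below 0.05, whatever the fold. Of the small subunit 12 (44.44%) were lower and 1 higher. Over all genes 13.5% were lower and 15.6% higher, and among genes brighter than the median of all values 22.2% and 22%. The difference between the subunit means was 0.001, 0.005 and -0.006 in the control arrays and 0.022, 0.008 and 0.013 in the epirubicin arrays, with the large subunit the higher. The difference between the medians was -0.006 and changed sign under other settings, for example to 0.040 with the mean of all probe sets.

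Symbols do not always give the subunit. In the structural nomenclature carried by RefSeq, MRPS18A and MRPS30 are proteins of the large subunit (mL66 and mL65). Placing both there gave 49 and 25 genes, with medians of -0.11 and -0.11. MRPS18A, MRPS18B and MRPS18C are related proteins that sit at different places, of which MRPS18C takes the place of the bacterial protein. MRPS18A lay at 0.04 (SE 0.03; -0.036 with centred arrays), MRPS18B at -0.13 (SE 0.03) and MRPS18C at -0.09 (SE 0.05). Of the 3, MRPS18B had an adjusted p under 0.05 (0.0241 in limma). With centred arrays MRPS18B and MRPS18C lay at -0.21 and -0.17.

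By the first letter of the name, the same nomenclature marks proteins with a counterpart in the bacterial ribosome and those with none. MRPS18A and MRPS18B (mS40) are of the second kind, though related to MRPS18C. RefSeq carried such a name for 73 of the 74. It carried none for MRPS28, the lowest MRPS gene at -0.32, which is therefore in neither group. The 43 with a bacterial counterpart had a median of -0.11, with 20 lower (46.51%) and 4 higher (9.30%) at an adjusted p under 0.05. The 30 with none had a median of -0.11, with 12 lower (40%) and 1 higher (3.33%). Shares over all genes were 13.5% lower and 15.6% higher. Among genes brighter than the median of all values they were 22.2% and 22%. By subunit, the median was -0.13 for 29 large and -0.07 for 14 small subunit proteins with a bacterial counterpart. It was -0.10 for 20 large and -0.15 for 10 small subunit proteins without one. The last group spanned -0.29, for MRPS23, to 0.01, for MRPS33, and these differences between groups were not tested.

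Proteins of one functional site did not share one value. In the stalk that recruits translation factors, MRPL12 had 9.64, 9.61 and 9.63 in control and 9.34, 9.38 and 9.39 with epirubicin, a difference of -0.25 (SE 0.03, limma adjusted p = 0.00154). Its partners MRPL10 and MRPL11 lay at 0.01 (CI -0.07 to 0.09) and -0.11 (CI -0.20 to -0.01). The sign of MRPL10 turned without epirubicin replicate 2 (-0.011) and with centred arrays (-0.065). Around the exit tunnel, MRPL22 lay at -0.19 (SE 0.03) and MRPL24 at -0.31, while MRPL45, which faces the inner membrane, lay at 0.07 (CI -0.002 to 0.15). MRPL45 was at -0.0034 with centred arrays. With the mean of all probe sets MRPL22 was at -0.0034 (limma adjusted p = 0.953) and MRPL11 at -0.05. MRPS12, of the decoding centre, had 9.85, 9.86 and 9.84 in control and 9.60, 9.73 and 9.67 with epirubicin, a difference of -0.18 (SE 0.04, limma adjusted p = 0.0173). The mean of its probe sets differed by -0.31.

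Most genes with several probe sets had the same sign on all of them. There were 164 probe sets for the 74 genes, with the 74 used among them, and 119 lay below 0. The share below 0 was not computed over all probe sets. Of the 164, 2 were called higher (both of MRPL1) and 2 lower (MRPS28 and MRPS12). Over all 47481 probe sets, 3.65% were called higher and 2.62% lower. Of 46 genes with several probe sets, 27 had all below 0, 5 all above 0 and 14 mixed signs. Of the 3 probe sets of MRPL45, 2 had identical values on all 6 arrays. MRPS12 was called on a probe set at 6.89 over the 6 arrays, at -0.50 (SE 0.05), and its 4 probe sets all lay below 0. Mixed signs included dim probe sets, as for MRPL22, whose 2 unused probe sets lay at means of 2.81 and 2.65. MRPS5 differed by -0.01 on the probe set used and by 0.29 (SE 0.07) on another at 6.63.

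The other genes of mitochondrial translation were described from lists of their known parts. Of 5 ribosomal proteins without an MRP symbol 4 were measured, and 0 were called. All 4 lay below 0 with all epirubicin arrays below all control arrays (20.1% of all genes). They were GADD45GIP1, a protein of the large subunit, at -0.33 (SE 0.04), PTCD3 at -0.17 (SE 0.04), and DAP3 and CHCHD1 at -0.04 and -0.03. DAP3 was at -0.12 with the mean of its 5 probe sets (limma adjusted p = 0.014) and with centred arrays, and CHCHD1 at -0.11 with centred arrays. PTCD3 was at -0.12 with the mean of its 6 probe sets (limma adjusted p = 0.0826). DAP3 binds guanine nucleotides in the head of the small subunit.

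Of 25 measured assembly factors, which process and fold the ribosomal RNAs and join the proteins to them, 1 was called lower and 0 higher. Over all genes 2.14% were called lower and 4.36% higher. The median was -0.13, and 13 were lower and 1 higher at an adjusted p under 0.05 at any fold, against 13.5% and 15.6% of all genes. The one called was MRM1, a ribose methyltransferase of the large ribosomal RNA, which fell by 0.44 on the log2 scale (SE 0.05, limma adjusted p = 0.00143), from 6.13 ± 0.05 to 5.70 ± 0.09 (SD, n = 3). The RNA helicase gene DHX30 lay at -0.34 (SE 0.04). MRM2, another methyltransferase of the same RNA, lay at 0.23 (SE 0.04, limma adjusted p = 0.00654; 0.15 with centred arrays), and NSUN4, which methylates the small ribosomal RNA, at 0.07 (SE 0.05; -0.0055 with centred arrays).

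Of 16 measured translation and messenger RNA factors of mitochondria, 1 was called lower and 0 higher (2.14% and 4.36% of all genes), with a median of -0.14. At an adjusted p under 0.05 at any fold 8 were lower and 1 higher, against 13.5% and 15.6% of all genes. PNPT1, the mitochondrial polynucleotide phosphorylase, fell by 0.42 (SE 0.04, limma adjusted p = 0.000602), and both of its probe sets were called lower. SLIRP, which stabilises mitochondrial messenger RNAs with LRPPRC, lay at -0.36 (SE 0.03), with LRPPRC itself at -0.20 (SE 0.03). OXA1L, which inserts new chains into the inner membrane, lay at 0.21 (SE 0.03, limma adjusted p = 0.00305), and the release factor gene MTRFR at 0.08 (SE 0.04). With the mean of its 4 probe sets OXA1L was at 0.10 (limma adjusted p = 0.0569), and with centred arrays OXA1L was at 0.13 and MTRFR at 0.003.

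Of 13 measured regulators of mitochondrial transcription and biogenesis, 2 were called lower and 0 higher (2.14% and 4.36% of all genes), with a median of -0.12. At an adjusted p under 0.05 at any fold 6 were lower and 2 higher, against 13.5% and 15.6% of all genes. MYC fell by 0.52 (SE 0.03, limma adjusted p = 0.000123), from 11.59 ± 0.02 to 11.07 ± 0.03. NRF1, a transcription factor of nuclear genes for mitochondrial proteins, fell by 0.44 (SE 0.06, limma adjusted p = 0.0018), from 6.68 ± 0.09 to 6.25 ± 0.06. It was called on 2 of its 4 probe sets, and its mean over them, -0.35, was not called. POLRMT, the mitochondrial RNA polymerase, lay at -0.37 (SE 0.04) and ended just under the fold threshold. The coactivator gene PPARGC1A lay at 0.24 (SE 0.04) and ESRRA at 0.14 (SE 0.04; 0.07 with centred arrays). GABPA, a gene of the transcription factor GABP, lay at -0.03 (SE 0.04, limma adjusted p = 0.642), and GABPB1 was not measured.

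The ribosome of the cytosol served for comparison. Of its 64 protein genes, 20 lay below 0 (44.3% of all genes), and the median was 0.02. Called lower were 2 and higher 0 (2.14% and 4.36% of all genes). At an adjusted p under 0.05 at any fold 2 were lower and 9 higher, against 13.5% and 15.6% of all genes. The 2 called were RPL27A, from 4.75 ± 0.06 to 4.25 ± 0.21, and RPL35A, from 8.99 ± 0.06 to 8.50 ± 0.04 (SD, n = 3), which had the lowest signals of the 64. The mean of these probe sets was 12.38 to 12.41 on each array, on a scale that ends at 13.73, and the part of this high signal in the fold changes was not tested. Nor was the difference between the 2 ribosomes tested.

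**Figure D3:**
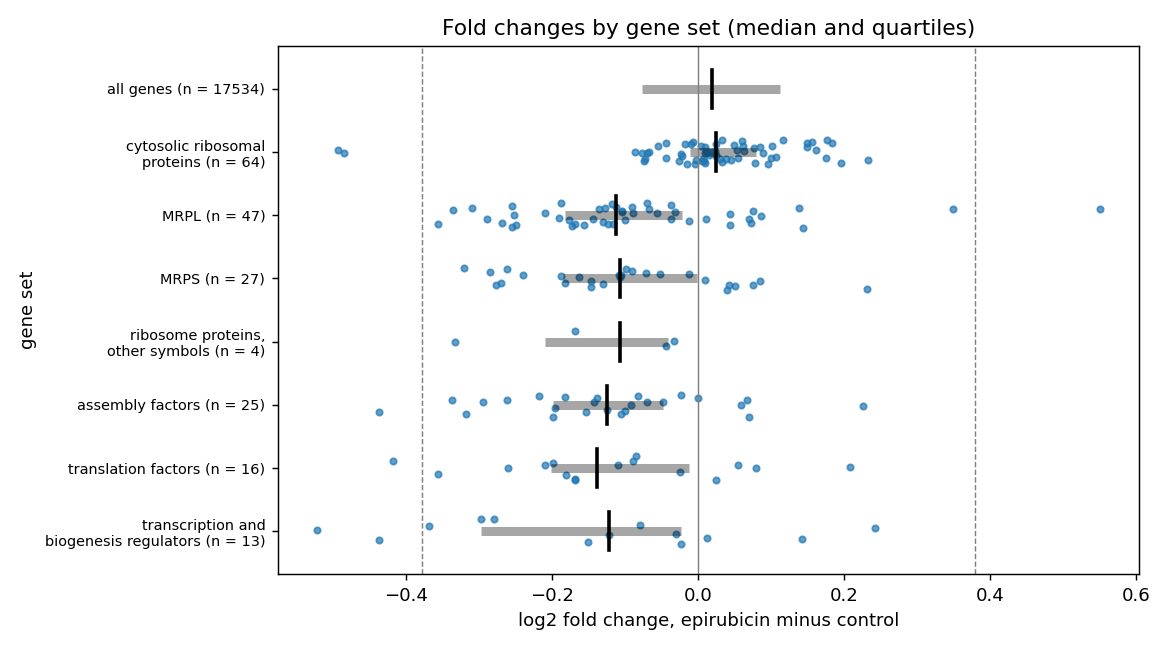
Log2 fold change, epirubicin minus control, of each gene (points; not drawn for all genes) by gene set, with the median (black line) and quartiles (grey bar); dashed lines mark a 1.3-fold change. Medians are 0.02 for all genes and for cytosolic ribosomal proteins, -0.11 for MRPL and for MRPS genes, and -0.11 to -0.14 for the other 4 sets.

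Promoters were compared because most of these genes shifted a little in one direction. A promoter of 300 bases, 250 before and 50 after the start, was held by RefSeq (GRCh38.p14) for 67 of the 74 genes. The core of the site bound by ETS factors, among them GABP, was searched as CCGGAAG on both strands. It was in 28 of the 67 promoters (41.8%), in 14.6% of the 14155 promoters of measured genes and in 10.7% of all 27305. Of its 37 copies in these genes 21 began within 50 bases before the start (56.8%), and of the copies in all measured genes 37.6% did. The share was 44.8% among the 29 genes that were lower at an adjusted p under 0.05 and 39.5% among the other 38.

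Other letters were counted in the same way. The NRF1 site, GCGCA followed by any base and GCGC, was in 8 of 67 (11.9%, against 8.94% of measured genes), and 2 promoters held it together with the ETS core. The E-box CACGTG, which MYC and others bind, was in 6 (8.96% against 8.79%), CCAAT in 20 (29.9% against 36.4%) and TATAAA in 2 (2.99% against 9.20%). A match of letters is a description and does not show binding.

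The bases just before the start are shown for genes with 3, 2 and 1 copies of the ETS core or with the NRF1 site, all of them among the genes lower at an adjusted p under 0.05, and for the 2 genes that lay highest. Capitals mark the ETS core or its reverse complement and, in MRPL17, the NRF1 site. Each stretch runs 5′ to 3′ in the direction of the gene and ends at the base before the start.
MRPS34 (chr16:1773135-1773254, minus strand): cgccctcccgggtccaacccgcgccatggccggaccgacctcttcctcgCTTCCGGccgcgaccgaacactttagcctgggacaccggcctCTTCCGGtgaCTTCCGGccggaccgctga
MRPL20 (chr1:1407294-1407413, minus strand): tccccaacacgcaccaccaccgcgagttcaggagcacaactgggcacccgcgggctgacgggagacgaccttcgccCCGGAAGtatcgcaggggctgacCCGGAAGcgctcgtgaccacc
MRPL3 (chr3:131502972-131503091, minus strand): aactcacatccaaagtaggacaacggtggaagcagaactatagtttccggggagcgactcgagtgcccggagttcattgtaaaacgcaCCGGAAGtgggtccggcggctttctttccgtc
MRPL47 (chr3:179604639-179604758, minus strand): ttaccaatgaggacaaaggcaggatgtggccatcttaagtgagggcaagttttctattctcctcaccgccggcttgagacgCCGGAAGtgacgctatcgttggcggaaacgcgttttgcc
MRPL17 (chr11:6683341-6683460, minus strand): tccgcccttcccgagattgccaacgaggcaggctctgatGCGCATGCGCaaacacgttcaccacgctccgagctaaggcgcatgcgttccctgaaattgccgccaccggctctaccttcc
MRPL1 (chr4:77862710-77862829, plus strand): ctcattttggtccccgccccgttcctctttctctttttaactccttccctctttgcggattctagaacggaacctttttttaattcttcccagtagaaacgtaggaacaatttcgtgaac
MRPL49 (chr11:65122135-65122182, plus strand): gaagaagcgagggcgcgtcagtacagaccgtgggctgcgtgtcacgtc

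The stretches of MRPL1 and MRPL49 hold neither set of letters. The choice of stretches does not show a rule: MRPL4, MRPL18, MRPL24, MRPS2 and MRPS35, among the 8 lowest genes, hold neither in their 300 bases, while MRPL27 and MRPS21, among the 8 highest, hold 2 ETS cores each. The log2 fold changes of the other genes shown were -0.26 for MRPS34 (SE 0.03), -0.19 for MRPL20 (SE 0.03), -0.27 for MRPL3 (SE 0.03), -0.25 for MRPL47 (SE 0.03) and -0.26 for MRPL17 (SE 0.04). The MRPL49 stretch is short because it is the whole interval up to FAU, which starts 49 bases away on the other strand.

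Some of these genes share a short promoter region with a gene that runs the other way. Within 1000 bases before the start, 20 of the 67 had such a measured neighbour, MRPL46 and MRPS11 being each other's and counted from both sides. In 11 of the 20 pairs member and neighbour had fold changes of the same sign, and this share was not computed for other pairs of genes. Of the neighbours, 3 were called lower and 0 higher, against 2.14% and 4.36% of all genes.

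The nearest pair was MRPL27 and EME1, with starts 45 bases apart and fold changes of 0.14 and 0.09 (log2). FAU, a gene of the cytosolic small ribosomal subunit, lay at -0.07 (SE 0.03, limma adjusted p = 0.155), from 12.82 ± 0.02 to 12.75 ± 0.02, beside MRPL49 at 0.35. TCP1, a subunit of the CCT chaperonin that starts 210 bases from MRPL18, fell by 0.50 (SE 0.04, limma adjusted p = 0.00043), and MRPL18 lay at -0.34. The histone chaperone gene HIRA fell by 0.63 (SE 0.04) beside MRPL40 at -0.18, and the condensin gene NCAPD2 by 0.46 (SE 0.05) beside MRPL51 at -0.09, with starts 812 and 840 bases apart. SARS2, the mitochondrial seryl-tRNA synthetase, lay at -0.19 (SE 0.04) beside MRPS12 at -0.18.

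**Figure D4:**
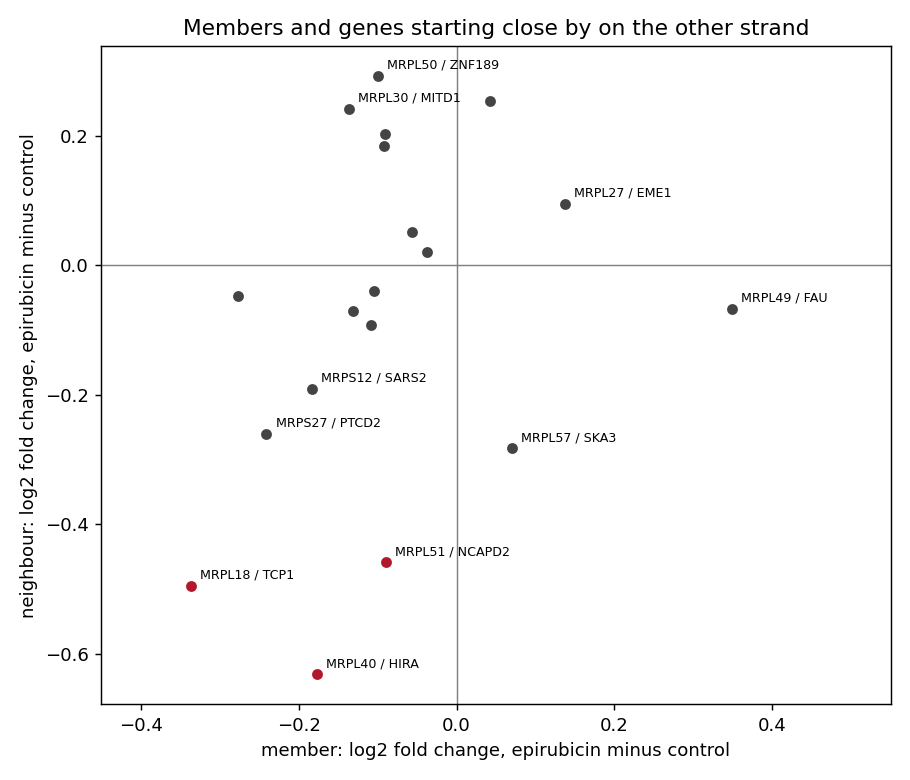
Log2 fold change, epirubicin minus control, of the mitochondrial ribosomal protein genes (x axis) and of the measured gene that starts within 1000 bases on the other strand (y axis); the pair of MRPL46 and MRPS11 is drawn once, and red marks the 3 neighbours called lower. MRPL18 and TCP1 both lie below 0, while MRPL49 at 0.35 faces FAU at -0.07.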

How the data were processed

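Values came from the authors' deposited series table, which holds 47481 probe sets by 6 arrays, and their range showed a log2 scale. The affy package is named without a version, per the submitters' processing notes. Background correction, normalization and probe summary are not stated, so what the differences are relative to is not known. Array medians over all genes were 6.04 to 6.05 in control and 6.11 to 6.12 with epirubicin. Of the probe sets, 43976 name 1 symbol in the platform annotation, 1558 several and 1947 none. Symbols were updated by Entrez number against RefSeq (43954 matched). The brightest probe set of each gene was fitted without covariates (lmFit, eBayes; limma 3.58.1, R 4.3.3), with Benjamini-Hochberg adjustment over 17534 genes. The fit was tested on simulated data. SE and 95% CI are limma's. The number of arrays limits the precision.

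The genes, lists and tests were chosen with earlier results of these data known. Named genes are those called, the 8 lowest and 8 highest, those beyond 1.5 interquartile ranges, preset genes of the stalk, exit tunnel and decoding centre and the MRPS18 family, and, per list, called genes and the 2 most extreme each way. MRPS5, MRPS33, LRPPRC, POLRMT, GABPA, SLAMF7, POU2AF1, CD27, CD79A, TNFRSF17, CD2, NCAM1, the neighbours and the genes whose promoters are shown were picked after their values were seen. Alternatives were the mean over probe sets, other scalings, a filter on dim genes, an intensity trend, a replicate block, each array left out, any fold, subunits by structure and, added later, probe sets without shared probes.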

Additional observations from a re-analysis of the deposited data

How the results depend on the processing

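MRPL1 was the 1 gene called higher under every setting but that without a fold threshold, where 5 were higher and 33 lower. The count called lower, 0 (376 of all 17534 genes), was 1 with the mean of probe sets (353 of all genes). It was also 1 with probe sets without shared probes (421 of all genes), an alternative chosen after seeing the data. MRPS28 was the gene in both. With arrays centred on the median of genes the count was 4, against 691 of all 17534 genes. Leaving out 1 array gave 0 to 1 lower and 1 to 1 higher. The count lower at an adjusted p under 0.05 at any fold, 33 (13.5% of all genes), was 52 with centred arrays (23.2%) and 21 with the replicate block (10.4%), and 21 to 29 without 1 array. The count higher, 5 (15.6% of all genes), was 3 with centred arrays (9.64%), 8 with an intensity trend (18.2%), 3 with the block (12.6%) and 4 to 5 without 1 array. Same-numbered arrays correlated at -0.06, -0.0004 and -0.007 in their deviations from the group means, so no pairing by number was seen. A pairing with little effect on the values would not show in this way. The block changed no call of a named gene at the fold threshold.

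The large subunit median moved to -0.089 with the mean of probe sets and -0.19 with centred arrays, the small subunit median to -0.18 with centred arrays. Without 1 array they ran from -0.12 to -0.10 and from -0.13 to -0.093. Their difference was 0.040 with the mean of probe sets, 0.0061 after quantile normalization, 0.0039 with subunits by structure and -0.0090 to 0.0099 without 1 array. With centred arrays the signs of MRPS18A (-0.036), MRPL10 (-0.065), MRPL45 (-0.0034) and NSUN4 (-0.0055) turned, as did NSUN4 (-0.0023) with probe sets without shared probes and MRPL10 (-0.011) without epirubicin replicate 2 (to 0.026 without the third). Of 574 values of 41 named genes under other settings, 533 kept direction and side of the threshold. Where a setting moved a value, the cause was not tested. Background could not be judged without detection calls.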

Other observations

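The 3 coding genes left out by the rule were read by probe sets with several gene entries, and 0 of these were called. The probe set of MRPS24 and its read-through gene lay at -0.24 (SE 0.03, limma adjusted p = 0.00292), from 11.41 ± 0.02 to 11.17 ± 0.003 (SD, n = 3), and that naming MRPL23 under 2 gene numbers at -0.17 (SE 0.04). The brighter probe set of MRPL53 and CCDC142 lay at 0.17 (SE 0.04, limma adjusted p = 0.0149) and the dimmer one at 0.04 (SE 0.05).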
